A study of Drosophila melanogaster with 33 samples.

Results

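Ada2b was mapped by chromatin immunoprecipitation sequencing (ChIP-Seq) in early Drosophila melanogaster embryos, and the loci described here are the broad ones on the large autosome arms. There were 2 lists of Ada2b peaks, 1 for each library. Peaks found in both, with 1 bp of overlap sufficing, were joined wherever they overlapped or touched, which gave 3750 reproduced loci. Of these, 2940 lay on arms 2L, 2R, 3L and 3R outside heterochromatin, and 251 of them (8.54%) had a merged width of 700 bp or more. These 251 loci are called broad, and the other 2689 loci of the same arms are called narrow. The broad loci were chosen by their merged width, a value measured in these lists, so their widths, and every peak measure from the same libraries, are given as a description without a test.

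Both lists came from Ada2b ChIP in Ataxin-7 mutant embryos of 1 to 3 hr, which are at stages 4 to 6. The antibody was raised in rabbit against amino acids 1 to 330 of Ada2b. The labels described 33 libraries (14 wild type, 19 mutant), of which the others were ChIPs of H2B, ubiquitinated H2B, H3, H3K9ac and H3K14ac or total chromatin. No Ada2b library from wild type was analysed here, so genotypes were not compared, and the labels used here do not name the Ataxin-7 allele. The libraries are called replicate 1 and replicate 2. The labels do not say whether they came from separate embryo collections, and their names begin with different numbers whose meaning is not stated, so any batch cannot be told apart from replicate.

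Ada2b is the partner of the acetyltransferase Gcn5. Together with Ada3 and Sgf29 they form the acetyltransferase module of the SAGA coactivator complex, which acts on histone H3 at the promoters of its target genes. The same subunits also form the smaller ADA complex, and Ada2b is also a subunit of the Chiffon-containing CHAT complex. An antibody to Ada2b may therefore precipitate DNA bound by any of them. Ataxin-7 anchors the deubiquitinase module to SAGA. ChIP peaks of a factor bound at a single point are usually little wider than the DNA fragments sequenced, and a wider peak holds signal spread over more DNA.

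The lists held 4654 peaks in replicate 1 and 4484 in replicate 2. Fold enrichment is the number of ChIP fragments over the highest point of a peak (its summit) divided by the local background. The strongest peak of a locus in a list is the one with the highest score, and so the lowest q-value, which need not be the one with the highest fold enrichment. The pileup is the number of fragments at the summit, recovered here from the fold enrichment and the p-value. The median pileup at the strongest peak of a broad locus was 116 fragments in replicate 1 and 112 in replicate 2, with a Poisson counting error of 9.28% and 9.45%. The lists differ in recovered background, with commonest values of 24.6 and 18.2 fragments, and depth was not measured. Fold enrichments are therefore compared within a list.

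The merged width of the 251 broad loci had a median of 856 bp, with quartiles of 769 and 1186 bp and a maximum of 6482 bp. Narrow loci had a median width of 346 bp, with quartiles of 295 and 428 bp. Most broad loci were only moderately wide: 162 (64.5%) measured 700 bp to under 1000 bp, 71 (28.3%) measured 1000 bp to under 2000 bp, and 18 (7.17%) measured 2000 bp or more. Broad loci held 284 kb of the 1285 kb in reproduced loci on these arms, or 22.1%. They took up 293 of 3649 arm peaks in replicate 1 (8.03%) and 302 of 3488 in replicate 2 (8.66%).

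**Figure D1:**
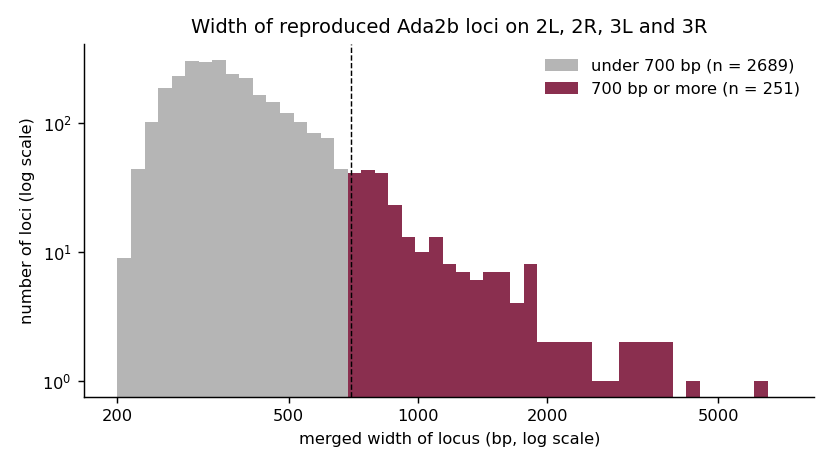
Number of reproduced Ada2b loci on 2L, 2R, 3L and 3R (y axis, log scale) by merged width (x axis, bp, log scale), with the 700 bp threshold as a dashed line. The 251 broad loci form the upper tail of a single distribution, without a gap at 700 bp, and 18 of them reach 2000 bp or more.

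The threshold fell within a continuous distribution. There were 42 loci of 650 to 699 bp and 53 of 700 to 749 bp. The smallest broad loci were 700 bp wide. Of these, the locus on chromosome 3L from 13034414 to 13035113 (dm3, here and throughout, with 1-based positions) had a fold enrichment of 5.68 in replicate 1 and of 6.64 in replicate 2. The other, on chromosome 2R from 17591844 to 17592543, had 2.44 and 2.59, and the next, on chromosome 2L from 14490691 to 14491391 and 701 bp wide, had 3.45 and 3.26. Just under the threshold, at 699 bp, the locus on chromosome 3L from 505729 to 506427 had fold enrichments of 8.77 and 11.96, and that on chromosome 3R from 19652000 to 19652698 had 3.77 and 5.38. A locus of 697 bp on chromosome 2R from 15337548 to 15338244 had 2.22 and 3.10. Strong and weak loci stood on both sides of 700 bp.

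To see how far each replicate alone supported the width, the span from the first to the last called base within each broad locus was taken per list. It reached 700 bp in both lists in 160 of 251 loci (63.7%), in replicate 1 only in 35 and in replicate 2 only in 37. In the remaining 19 loci (7.57%), of 700 to 829 bp, neither list reached 700 bp and only the union of the lists did. Loci that were broad in both lists had a median width of 1055 bp, against 742 bp for those broad in replicate 1 only and 752 bp for those broad in replicate 2 only. A single called peak of 700 bp or more was present in both lists in 113 loci (45.02%). Loci that reached 700 bp in replicate 1 only, or in neither list, were all under 860 bp wide, whereas those broad in replicate 2 only extended to 2721 bp.

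The number of bases called within a broad locus had a median of 793 bp in replicate 1 and 807 bp in replicate 2. Replicate 1 called more bases at 122 loci, replicate 2 at 128, and 1 locus was equal. The called length differed by less than 10% between the lists at 110 loci (43.8%) and by more than 2-fold at 16 (6.37%). Spearman's rho of called length between the lists was 0.690 across the 251 broad loci and 0.700 across the narrow ones, a description over loci that share 2 libraries. Within the class under 1000 bp, whose range of widths is small, rho was 0.254, and among the 18 loci of 2000 bp or more it was 0.810. The first called bases of the lists lay a median of 39 bp apart at broad loci and 21 bp at narrow ones, and the last called bases 44 and 21 bp. The ends of broad loci thus differed more between the lists than those of narrow loci, though by little relative to their width.

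**Figure D2:**
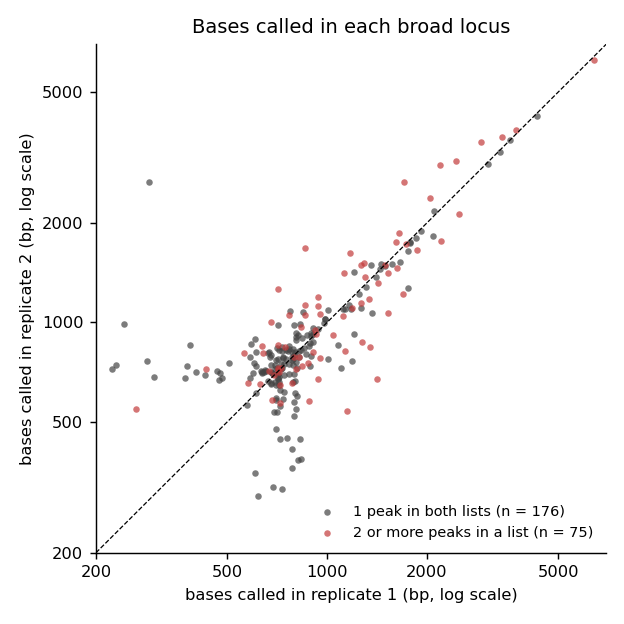
Bases called in replicate 1 (x axis, bp, log scale) and in replicate 2 (y axis, bp, log scale) at each of the 251 broad loci; the dashed line marks equal length. Loci with 1 peak in both lists (n = 176) and loci with 2 or more peaks in a list (n = 75) lie along the line and on both sides of it. Some loci over 1000 bp wide also lie away from it, such as that of 1412 and 672 bp. The locus of 290 and 2677 bp stands farthest from it.

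The called length differed most between the lists at a locus on chromosome 3L from 3195149 to 3197869, which was 2721 bp wide. Replicate 1 called 290 bp there and replicate 2 called 2677 bp, so that 9.04% of the called bases were common to both lists. Its fold enrichment in replicate 1 was 2.94, between the lower quartile (2.82) and the median (3.62) of broad loci. In replicate 2 it was 2.13, under the lower quartile of 3.28. Over all broad loci the lists shared a median of 83.04% of the called bases, with quartiles of 69.9% and 91.7%. At 19 loci (7.57%) under 50% was shared, against 94 of 2689 narrow loci (3.50%).

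The 12 widest loci ranged from 2721 to 6482 bp, with 4 on 3R, 3 on 2R, 3 on 3L and 2 on 2L. The widest, on chromosome 2R from 3367636 to 3374117, was called as 2 peaks in each list, covering 6423 bp in replicate 1 and 6248 bp in replicate 2. Its strongest peak had a fold enrichment of 3.53 in replicate 1, rank 1621.5 in that list by score (ties sharing a mean rank), and 2.76 in replicate 2, rank 2461. Its other peak had 3.29 in replicate 1 and 2.90 in replicate 2, where it was thus slightly higher in fold enrichment than the peak of better score. By its peak of best score, the widest locus was thus near the broad median of 3.62 in replicate 1. In replicate 2 it was under the lower quartile of broad loci, 3.28.

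The widest locus on 2L, from 6373497 to 6377816, was a single peak of 4320 bp in replicate 1 and of 4223 bp in replicate 2. Its fold enrichments were 4.40 and 4.13, with pileups of 155 and 152 fragments. Both lists drew it with nearly the same ends, sharing 97.8% of the called bases, but placed their summits 1387 bp apart. The widest locus on 3L, from 16766427 to 16770283, measured 3857 bp. It had a fold enrichment of 3.38 in replicate 1, with 2 peaks, and of 3.28 in replicate 2, with 1 peak. On that locus the strongest summits lay 715 bp apart.

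The widest locus on 3R, from 17121374 to 17125193, measured 3820 bp, and its fold enrichments of 7.69 and 9.48 were the highest among the 12 widest in both lists. Its strongest summits lay 6 bp apart. Replicate 1 called 1 peak there and replicate 2 called 2, of which the second had a fold enrichment of 8.54. The pileup of 196 fragments in replicate 1 stood over a background of 24.6 fragments, and that of 181 in replicate 2 over 18.2. In the plot of the widest loci, both of the strongest summits sit near the same end, and the called bases extend from there to the other side.

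A locus of 3341 bp on chromosome 2R from 15546088 to 15549428 was a single peak in both lists, with 98.5% of called bases shared. It had the highest pileups of the 12 widest, 234 and 232 fragments, and fold enrichments of 7.13 and 6.96. Its summits, however, lay 653 bp apart. A locus of 3598 bp on chromosome 2L from 2752740 to 2756337 was also a single peak in both, with 99.1% shared, fold enrichments of 3.84 and 5.31, and summits 107 bp apart. At these loci the lists gave almost the same interval from separate libraries.

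Other wide loci were fragmented in 1 list. On chromosome 2R from 6369112 to 6371922, replicate 1 called 5 peaks, the most in any broad locus, covering 1707 bp, where replicate 2 called 1 peak of 2671 bp. The fold enrichment there was 2.32 in replicate 1 and 2.29 in replicate 2. Replicate 1 called 3 peaks at each of 2 loci on 3R, from 2912033 to 2915267 and from 7784139 to 7787163, where replicate 2 called single peaks of 3088 and 3001 bp. Their fold enrichments were 5.09 and 6.10 at the former and 3.29 and 4.97 at the latter. In replicate 2 the largest number of peaks in a locus was 3, reached at 6 loci, of which the widest lay on chromosome 2R from 15554521 to 15556788. There replicate 1 called a single peak, and the fold enrichments were 2.04 and 2.69. The last of the 12 widest not yet named, on chromosome 3L from 11244810 to 11248345 and on chromosome 3R from 12907932 to 12910997, had fold enrichments of 4.51 and 7.51, and of 2.93 and 2.39.

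**Figure D3:**
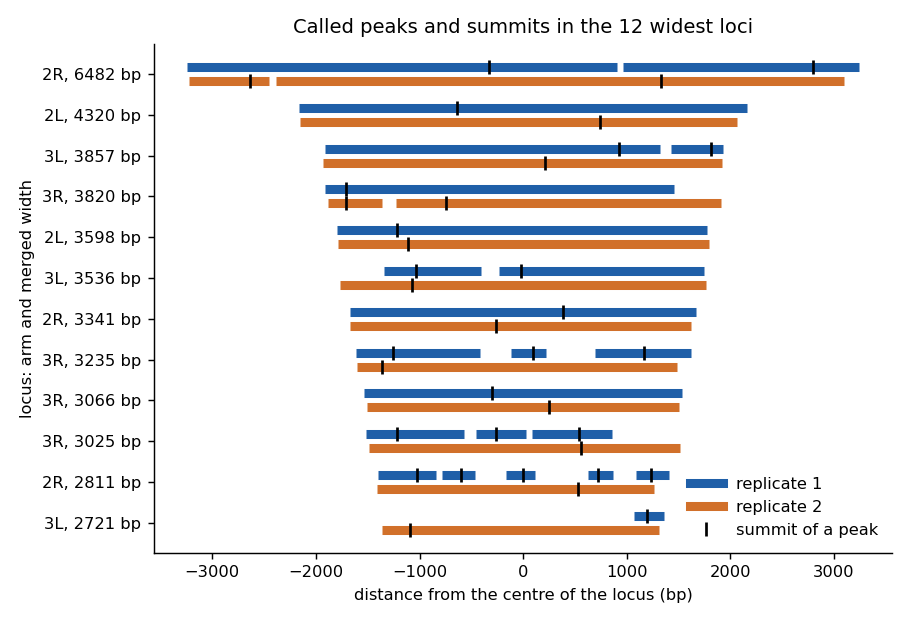
Called peaks (bars) and their summits (ticks) in the 12 widest broad loci, in replicate 1 and replicate 2, by distance from the centre of the locus (x axis, bp); rows give the arm and the merged width. The outer ends agree closely in most rows, while gaps and summits differ between the lists, as in the 2811 bp locus on 2R with 5 peaks in replicate 1 and 1 in replicate 2.

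Over all broad loci, 176 (70.1%) were called as 1 peak in both lists. The other 75 (29.9%) had 2 or more peaks in a list: 30 in replicate 1 only, 38 in replicate 2 only and 7 in both. Splitting was more frequent among wider loci, with 28 of 162 loci (17.3%) under 1000 bp, 36 of 71 (50.7%) from 1000 bp to under 2000 bp and 11 of 18 (61.1%) of 2000 bp or more. A wider locus also has more room for a gap. The gaps measured 53 to 674 bp in replicate 1 (median 135 bp, 42 gaps) and 53 to 423 bp in replicate 2 (median 124 bp, 51 gaps). With the peaks of a split locus ordered by fold enrichment instead of score, the second had a median of 0.785 of the fold enrichment of the first in replicate 1 (range 0.427 to 0.994) and 0.784 in replicate 2 (range 0.330 to 0.990), a ratio that this order keeps at 1 or under.

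Fold enrichment was compared between broad and narrow loci to ask whether width went with height. Both are taken from the peaks that set the width. The strongest peak of a broad locus had a median fold enrichment of 3.62 in replicate 1, with quartiles of 2.82 and 4.94, against 3.33 at narrow loci (quartiles 2.66 and 4.60). In replicate 2 the medians were 4.46 (quartiles 3.28 and 6.59) and 3.82 (quartiles 2.99 and 5.41). The distributions overlapped over most of their range in both lists. With only the upper 50% of peaks by score kept in each list, the replicate 1 median was 4.49 at broad and 4.60 at narrow loci, the reverse order. In replicate 2 the order was kept, at 5.71 and 5.40.

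Among the broad loci, the class of the lowest widths had the highest median fold enrichment in both lists. Median fold enrichment in replicate 1 was 3.72 under 1000 bp, 3.39 from there to under 2000 bp and 3.51 at 2000 bp or more. In replicate 2 the medians were 4.75, 4.21 and 4.05. Spearman's rho of width and fold enrichment was −0.105 in replicate 1 and −0.168 in replicate 2 across the 251 broad loci, and 0.273 and 0.304 across narrow loci, all as descriptions across loci of the same libraries. Among the 18 loci of 2000 bp or more it had the opposite sign, 0.544 in replicate 1 and 0.354 in replicate 2.

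**Figure D4:**
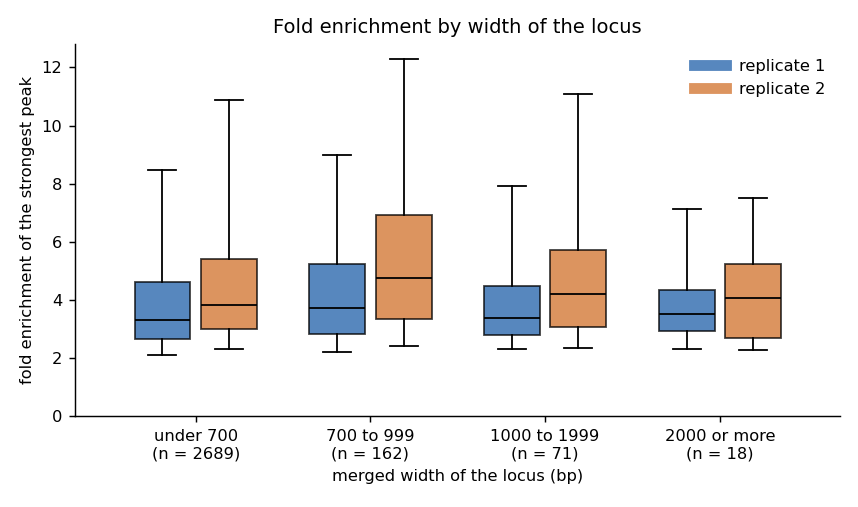
Fold enrichment of the strongest peak (y axis) by merged width of the locus (x axis) in replicate 1 and replicate 2; boxes span the quartiles with the median as a line, and whiskers reach the 5th and 95th percentiles. The medians of the 3 broad classes lie between 3.39 and 3.72 in replicate 1 and between 4.05 and 4.75 in replicate 2, and are highest in the class of the lowest widths in both.

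Ranked by score within their lists, 41 broad loci (16.3%) had their strongest peak in the top 10% of both lists, and 279 narrow loci (10.4%) did. In the lower 50% of both lists were 55 broad loci (21.9%) and 924 narrow loci (34.4%). The highest fold enrichment of a strongest peak in replicate 1 was 13.01, on chromosome 3R from 20381556 to 20383120, and the lowest was 1.66, on chromosome 2L from 161453 to 162281. In replicate 2 the highest was 17.3, on chromosome 3R from 796185 to 796999, and the lowest was 1.79, on chromosome 3L from 18582059 to 18583744. Broad loci thus included strong and weak ones.

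The 10 broad loci with the best mean rank were about as wide as broad loci in general. They measured 720 to 1565 bp, with a median of 848 bp against 856 bp for all 251. Of the 10, 7 were under 1000 bp, against 162 of 251 (64.5%). None of the 12 widest, a small part of the 251, was among them. Fold enrichment among them was 9.31 to 13.01 in replicate 1, against 2.32 to 7.69 for the 12 widest, and 12.3 to 17.3 in replicate 2, against 2.13 to 9.48. The best ranked, on chromosome 3R from 20381556 to 20383120, was 1565 bp wide with fold enrichments of 13.01 and 15.9 and pileups of 353 and 314 fragments. The next, on chromosome 3R from 24370395 to 24371142, was 748 bp wide with fold enrichments of 11.7 and 15.6, and its summits lay 13 bp apart.

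Of these 10 loci, 8 lay on 3R and 2 on 2R, while 87 of the 251 broad loci lay on 3R. Positions of the 10 were examined after their ranks were known, and 5 of them fell between 12086080 and 13443263 on chromosome 3R, a stretch of 1.36 Mb that held 52 reproduced loci and 7 broad ones. From the first to the last, the 5 started at 12086080, 12481355, 12623679, 12795240 and 13442168. The one from 12795240 to 12796054 had a fold enrichment of 11.9 in replicate 1 and of 16.5 in replicate 2, with summits 3 bp apart. That from 12623679 to 12624814 had 10.2 and 15.4, and that from 12481355 to 12482270 had 11.7 and 13.6. The one from 13442168 to 13443263 had 12.3 and 15.6, with summits 1 bp apart. Genes at these positions were not analysed here, since the gene table used here is of another genome build.

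In bp, the summits of the lists lay farther apart at broad than at narrow loci, and by far the farthest at 2000 bp or more. A wider locus also has more room for such a distance. The strongest summits of the lists lay a median of 32 bp apart at broad loci, with quartiles of 10 and 149 bp, and 18 bp apart at narrow loci, with quartiles of 8 and 36 bp. They lay within 100 bp of each other at 173 broad loci (68.9%, 95% Wilson interval 62.9% to 74.3%) and at 2534 narrow loci (94.2%, interval 93.3% to 95.1%). By class, the median distance was 27.5 bp under 1000 bp, 29 bp from there to under 2000 bp and 697 bp at 2000 bp or more. Summits were over 500 bp apart at 22 broad loci, 13 of them among the 18 of 2000 bp or more, and at no narrow locus, where there is little room for it. Of the 18 widest, most therefore had highest points that the lists placed apart.

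The strongest summit of a broad locus lay outside the central 1/3 at most loci. It lay in the central 1/3 of the locus at 79 loci (31.5%, interval 26.04% to 37.5%) in replicate 1 and at 84 (33.5%, interval 27.9% to 39.5%) in replicate 2. At narrow loci the shares were 85.2% and 85.5%. No broad summit lay closer to an end than 56 bp in replicate 1 and 92 bp in replicate 2. A share of 1/3 is therefore not what an even placement of summits would give. The first 1/3 of the locus held the summit at 91 and 94 broad loci and the last 1/3 at 81 and 73, so neither side of the chromosome was favoured by much. The nearer end of a broad locus lay a median of 243 bp from the summit in replicate 1 and 253 bp in replicate 2, and the farther end 624 and 615 bp. At narrow loci the nearer end lay 150 bp away in both lists and the farther end 192 and 191 bp. The farther side of a broad locus was thus more than 2 times as long as the nearer one at the medians. A narrow peak leaves a summit little room away from its centre, so the shares of broad and narrow loci are not measured on the same footing.

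Both lists placed the summit on the same side of the locus, left or right of its centre, at 200 of 251 broad loci (79.7%, interval 74.3% to 84.2%). At narrow loci, where most summits lay in the central 1/3, this was so at 1674 of 2689 (62.3%, interval 60.4% to 64.1%). At loci of 2000 bp or more this was so at 10 of 18. Among the 176 loci with 1 peak in both lists, the summit lay in the central 1/3 at 65 loci (36.9%) in replicate 1 and at 70 (39.8%) in replicate 2. Undivided peaks thus also had most summits outside the central 1/3.

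**Figure D5:**
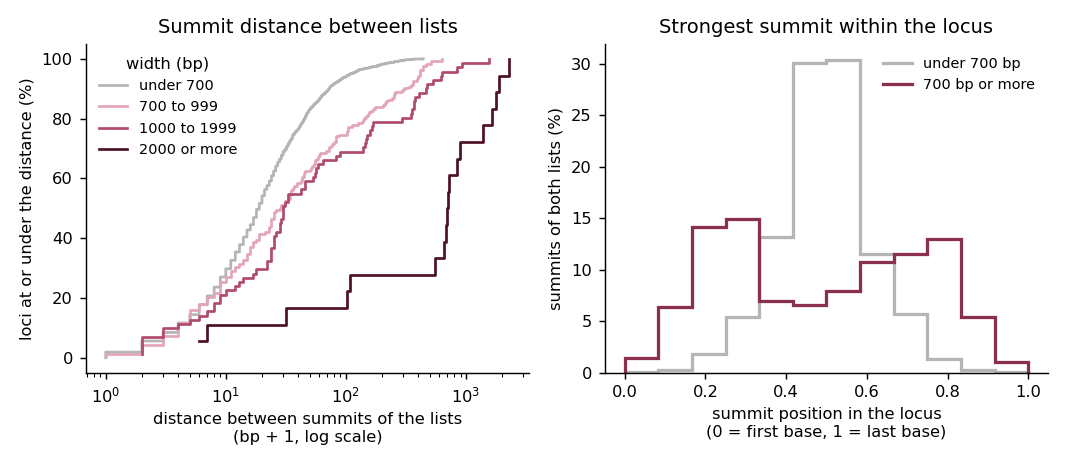
Left, share of loci (y axis, %) whose strongest summits in the lists lie at or under a distance (x axis, bp + 1, log scale), by merged width; right, share of strongest summits (y axis, %) by relative position in the locus (x axis, 0 first base and 1 last base), both lists together. Loci of 2000 bp or more stand apart on the left with a median of 697 bp, and on the right broad loci show a crest on each side of the centre where narrow loci have a single central one.

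The local background at the strongest summit, in fragments on the scale of the ChIP library, was also recorded. Its median was 30.7 at broad and 29.0 at narrow loci in replicate 1, and 23.03 and 21.5 in replicate 2. In the 18 loci of 2000 bp or more it was 33.6 and 32.1, above the narrow median in 14 of 18 loci in replicate 1 and in 16 of 18 in replicate 2. The commonest background, 24.6 fragments in replicate 1 and 18.2 in replicate 2, was found at 17 broad loci (6.77%) and 392 narrow loci (14.6%) in replicate 1, and at 38 (15.1%) and 581 (21.6%) in replicate 2. Background divides the pileup in the fold enrichment. Its part in the fold enrichment of wide loci was not tested. The pileup itself had medians of 119, 114 and 114 fragments in replicate 1 and 111, 112 and 122.5 in replicate 2 over the classes in order of width.

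Broad loci were found on all 4 arms. Arm 3R held 87 (34.7% of the broad loci), 2R held 63, 3L held 55 and 2L held 46. The share of reproduced loci that were broad was 9.97% on 3R (95% Wilson interval 8.15% to 12.1%), 8.70% on 2R (6.86% to 10.98%), 8.12% on 3L (6.29% to 10.4%) and 6.91% on 2L (5.22% to 9.09%). All 4 intervals overlapped, including those of 3R and 2L, and they cover counting error only. Per Mb between the first and last peak there were 3.12 broad loci on 3R, 2.98 on 2R, 2.24 on 3L and 2.00 on 2L. Median width lay between 828 bp on 2L and 863 bp on 3R. Median fold enrichment was highest on 3R, at 4.22 in replicate 1 and 5.37 in replicate 2, and on the other arms ranged from 3.11 to 3.81 and from 4.05 to 4.61. On X, outside the set described here, 28 of 584 reproduced loci (4.79%, interval 3.34% to 6.84%) reached the same width.

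Broad loci often had a close neighbour. Another reproduced locus lay within 2 kb of 129 broad loci (51.4%, interval 45.2% to 57.5%) and of 770 narrow loci (28.6%). The median gap to the nearest locus was 1842 bp at broad and 6146 bp at narrow loci. By class, 75 of 162 (46.3%), 42 of 71 (59.2%) and 12 of 18 (66.7%) had such a neighbour in order of width. Merging loci within 500 bp lowered the shares to 25.8% of broad and 14.9% of narrow loci. Keeping the upper 50% of peaks by score gave 23.2% and 15.4%. Broad loci had the higher share in both settings. At the other end, 59 broad loci (23.5%) had no other locus within 10 kb.

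Some neighbours were themselves broad. Another broad locus lay within 2 kb of 60 of the 251 (23.9%), while the median gap between a broad locus and the nearest other was 54.3 kb. When reproduced loci were chained across gaps of up to 2 kb, a grouping chosen after the data were examined, broad loci fell into 218 stretches. Of these, 122 consisted of a single locus, 28 held 2 or more broad loci and 4 held 3 or more. The stretch with the most broad loci lay on chromosome 3L from 14962342 to 14970838 and consisted of 4 loci, all of them broad. Fold enrichment of its loci was 2.81 to 3.68 in replicate 1 and 2.99 to 4.00 in replicate 2, and 56.9% of its 8497 bp was within loci.

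The most continuous of the 4 included the widest locus and lay on chromosome 2R from 3365747 to 3374117. Its 3 loci were all broad and filled 96.8% of 8371 bp, with fold enrichments of 2.46 to 5.06 in replicate 1 and 2.76 to 4.58 in replicate 2. On chromosome 2R from 6411188 to 6423015, 11 loci, of which 3 were broad, filled 75.9% of 11828 bp. There fold enrichment was 1.89 to 4.24 in replicate 1 and 1.84 to 4.24 in replicate 2. On chromosome 3R from 21471809 to 21478201, 5 loci, of which 3 were broad, filled 58.4% of 6393 bp, with fold enrichments of 2.33 to 4.53 and 2.10 to 6.22. No locus of these 4 stretches reached the fold enrichments of the 10 best ranked loci.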

How the data were processed

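ChIP-Seq libraries were sequenced as single reads. The submitters' processing notes name CASAVA 1.8.2, Bowtie, MACS2 and the dm3 genome, and 1 peak list was deposited per replicate. Parameters, versions of Bowtie and MACS2 and the control library are not given in the sources used here. The deposited lists give positions, the fold enrichment (a ratio), the −log10 p-value and −log10 q-value at the summit, and a score. In 100% of peaks the score was the −log10 q-value times 10, rounded down. From these the pileup was recovered as the whole number k for which a Poisson tail beyond k returned the p-value, the fold being (k + 1)/(background + 1). The deposited −log10 p-values were returned within 1.44e-04 in replicate 1 and 2.51e-04 in replicate 2. Recovery was tested on simulated data, and the pileup of 100% of 2000 simulated peaks was recovered.

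Total read numbers were not used here, and intervals and Poisson errors cover counting error only. No hypothesis test was run: the loci were chosen on width in the same 2 libraries, and loci are not replicates. Members, classes and the list of measures were chosen with earlier results of these data known. Loci named are the 12 widest (which include the widest of each arm), the 10 of best mean rank by score (of which 7 are given with positions), 3 on each side of the threshold, and the loci with the most peaks in a list (of 6 such loci in replicate 2, only the widest); others were singled out after their values were seen. Alternatives were widths of 500 and 1000 bp, a reciprocal overlap of 50%, the upper 50% of each list, merging within 500 bp, each list alone, other neighbour distances and all summits. Genes, transcription start sites, motifs and sequences at the loci were not analysed here, since a dm3 genome and annotation were not used. The software was Python 3.11.15 with pandas 2.3.3, matplotlib 3.10.9, scipy 1.17.1 and numpy 2.4.6.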

Additional observations from a re-analysis of the deposited data

How the results depend on the processing

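No test was run, so no call could change. Of 58 recomputed values, 19 stayed within 1.5 times the count or within the 95% counting interval over loci, and 39 moved. At 500 bp there were 616 broad loci (20.95% of loci), with a median width of 637.5 bp, 13.6% split and 41.6% with a neighbour within 2 kb. At 1000 bp there were 89 (3.03%), with a median width of 1426 bp, 52.8% split, a median fold enrichment in replicate 1 of 3.40, summits 45 bp apart and 60.7% with a neighbour. The counts and widths shift by construction. With a reciprocal overlap of 50%, 6.93% of loci were broad and 17.4% of these split, median fold enrichments were 3.94 and 4.95, and rho of called length was 0.783. Keeping the upper 50% of peaks by score gave 164 broad loci (10.9%), of which 11.6% were split, with median fold enrichments of 4.49 and 5.71, summits 19 bp apart, rho of 0.547 and 23.2% with a neighbour. Merging loci within 500 bp gave 396 broad loci (14.9%) with a median width of 1041.5 bp, 71.2% split, a fold enrichment in replicate 1 of 3.86, summits 23 bp apart, rho of 0.812 and 25.8% with a neighbour.

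Each list alone, leaving out the other replicate, gave 173 to 177 broad peaks, 4.85% to 4.96% of arm peaks, median widths of 852 to 874 bp, and 62.4% to 64.4% with a neighbour; the median fold enrichment was 3.64 in replicate 1 and 4.75 in replicate 2. Splitting, summit distance and rho compare peaks within or between lists and give no value there. Other causes of the shifts were not tested. A neighbour lay within 1 kb of 41.8% and within 5 kb of 65.7% of broad loci. Taking all peak summits put 30.1% in the central 1/3, against 32.5% for the strongest. The motif alternative was not run. No paired analysis was possible because both lists belong to a single group and no result comes from a test. The counting error of the median pileup, 9.28% and 9.45%, limits the ranking of loci by height.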

Other observations

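Wide peaks on the large autosome arms were also checked for an overlapping peak of any width in the other list. Replicate 1 called 177 arm peaks of 700 bp or more, of which 1 did not overlap any peak of replicate 2. Replicate 2 called 173, of which 3 did not overlap a peak of replicate 1. An overlap of 1 bp sufficed, for which a wide peak has more room. The share over all arm peaks was not counted directly. The arms held 3649 peaks in replicate 1 and 3488 in replicate 2, but only 2940 reproduced loci. Of the 2689 narrow ones among these, all but 9 held 1 peak in each list. Peaks of all widths thus lacked an overlap more often than wide ones. By width the lists differed more. A called peak of 700 bp or more was present in both lists at 113 broad loci, in replicate 1 only at 59 and in replicate 2 only at 54. At the remaining 25 (9.96%) neither list held such a peak. The widest of the 4 peaks without an overlap was a replicate 2 peak of 1548 bp on chromosome 3R from 19881145 to 19882692. It had a fold enrichment of 2.22 and −log10 q of 8.14. The other three had fold enrichments of 2.04 (888 bp, chromosome 2R from 20549611 to 20550498, replicate 1), 2.49 (904 bp, chromosome 3R from 21465003 to 21465906, replicate 2) and 2.04 (847 bp, chromosome 2R from 6414246 to 6415092, replicate 2). The last of them lies within the 2R stretch of 11 loci described above.

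Loci of the same width were also present outside the large arms. Chromosome 4 held 5 of 70 reproduced loci (7.14%, 95% Wilson interval 3.09% to 15.7%), with a median fold enrichment of 11.1 in replicate 1 and of 15.2 in replicate 2. The heterochromatic parts of the large arms held 4 of 62 (6.45%, interval 2.54% to 15.4%), with medians of 7.85 and 8.54. These medians are higher than the 3.62 and 4.46 of the 251 broad loci, from small numbers of loci and without a test of the difference.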
